A study of Mus musculus with 22 samples.

Results

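Gata1 to Gata6 are the 6 members of the GATA family of transcription factors in the mouse. They were chosen by name, as the entries of the count table whose gene symbol is Gata1 to Gata6, and they are 6 of its 26202 symbols. The rule also names the comparisons in which their counts scaled to library size (CPM) are read. Levels and fold changes of members are therefore given as descriptions, and nothing is read from the test calls of members reported below.

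RNA was sequenced from embryonic mouse tracheas, with 5 tracheas pooled in each sample. It was selected by its poly(A) tail and amplified with the SMART-Seq v4 kit for very small inputs. At E11.5, whole tracheas gave 5 control libraries (Wnt5a f/f) and 4 mutant libraries (Dermo1Cre; Wnt5a f/f). The Dermo1 driver deletes the floxed gene in the mesenchyme, so the epithelium of these mutants still carries Wnt5a, and each E11.5 library mixes epithelium with mesenchyme. At E13.5, dissociated tracheas were sorted with an antibody to EpCAM (coupled to APC) and the smooth muscle reporter gamma SMA eGFP, which every E13.5 group carries. Cells with EpCAM are called epithelium, cells with the reporter muscle, and cells with neither chondroblasts. The double-negative gate removes those populations and selects no marker of cartilage. The control populations have 2 libraries each. Their labels give either Bmp4 f/f; gamma SMA eGFP, with no Cre named, or Notum 300/300; gamma SMA eGFP, and which library has which genotype cannot be told from the columns. The mutant group has 3 libraries of Notum 150/150; gamma SMA eGFP chondroblasts. For each E13.5 group the labels list 1 sample more than could be matched to a column.

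GATA factors bind DNA at the letters GATA through paired zinc fingers. Gata1, Gata2 and Gata3 are known best for blood cells: Gata1 for red cells, megakaryocytes and mast cells, Gata2 for blood progenitors, mast cells and endothelium, and Gata3 for T cells, sympathetic neurons and the parathyroid. Gata4, Gata5 and Gata6 are known for the heart, for the lining of body cavities and for organs with an endodermal epithelium, and Gata6 is also known in the airway epithelium of the lung.

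Letters name the libraries of a group by column order. Total counts ran from 6880660 in E11.5 control E to 21678177 in control chondroblasts A. A floor of 3 counts, over the total count alone, was 0.436 CPM in the former and 0.138 CPM in the latter. Levels carry a further scaling factor (TMM), 1.005 and 0.903 in these 2 libraries, which the floors leave out. Floors and counting intervals cover counting error only, since the kit adds no molecular identifiers. The columns of the sorted cells carry either an earlier or a later date, of unstated meaning. Control chondroblasts A, muscle A and epithelium B have the earlier date, and control chondroblasts B, muscle B, epithelium A and all 3 Notum mutants the later, so the date and the genotype of chondroblasts are partly confounded.

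The sorted populations carried the markers of their labels. Epcam was at 895 and 522 CPM in epithelium A and B and at 4.48 CPM or less in the other E13.5 libraries. Acta2, a smooth muscle actin, was at 7039 and 5126 CPM in muscle A and B. Col2a1, a cartilage collagen, was at 1213 and 912 CPM in control chondroblasts A and B and between 1271 and 1780 CPM in the Notum mutants. It was not absent from the other populations, with 301 and 189 CPM in epithelium and 277 and 697 CPM in muscle. Transcripts of the targeted genes did not separate mutants from controls. Wnt5a was between 57.7 and 162 CPM in the E11.5 controls and at 46.5, 78.6, 87.7 and 127 CPM in the mutants, and Notum was at 13.8 and 86.1 CPM in control chondroblasts and at 34.0, 35.6 and 13.9 CPM in the Notum mutants. Counts per symbol do not show whether a transcript carries the mutated part.

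Several libraries stood apart from others of their group. Control chondroblasts A held 80191 CPM of 17 erythroid transcripts, against 8017 CPM in control chondroblasts B and 7755 to 10545 CPM in the Notum mutants. In epithelium B, the thyroid and foregut gene Hhex was at 172 CPM and the macrophage receptor gene Csf1r at 91.3 CPM, against 11.05 and 0 CPM in epithelium A. The number of genes detected was 17267 and 14551 in the control chondroblasts and 18608, 19385 and 17600 in the Notum mutants.

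Gata1, the red cell and mast cell factor, was read first as a measure of blood cells. E11.5 controls A to E had 8.26, 3.32, 5.40, 11.51 and 6.22 CPM, and Wnt5a mutants A to D had 10.5, 5.72, 5.24 and 3.03 CPM. The mutants lay within the range of the controls, apart from mutant D, which was just below it. Each mutant was below the control with the same column number, at 10.5 against 11.51, 5.72 against 8.26, 5.24 against 5.40 and 3.03 against 3.32 CPM. This was compared after the values were seen, and the numbers were not borne out as pairs for all mutants. In the sorted controls, Gata1 had 0 counts in both epithelium libraries, 1.42 and 0.189 CPM in muscle A and B, and 4.75 and 0 CPM in chondroblasts A and B. The Notum mutants had 1.76, 0.884 and 8.49 CPM, and only mutant C was above control chondroblasts A. By mean level the order was E11.5 control, Wnt5a mutant, Notum mutant, control chondroblasts, muscle and epithelium, and only muscle and epithelium at its end did not overlap. In bulk RNA, fewer cells that express a gene and less of its RNA per cell cannot be told apart.

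The red cell transcripts did not follow Gata1 in every sorted library. Summed over the 17 erythroid genes in the table, levels were 593 and 25.1 CPM in epithelium A and B and 25.9 and 3578 CPM in muscle A and B. Gata1 was higher in muscle A than in muscle B, whereas the erythroid sum was higher in muscle B. The most abundant erythroid gene was the globin gene Hba-a1, at 34389.9 CPM in control chondroblasts A, 4646 CPM in B, and 4741, 3664 and 5163 CPM in Notum mutants A to C. Control chondroblasts B thus had 4646 CPM of Hba-a1 and 0 counts of Gata1. The mast cell protease gene Cpa3, chosen after its values were seen, was at 7.46 and 22.1 CPM in control chondroblasts A and B and at 0.603, 0 and 14.4 CPM in the Notum mutants. Notum mutant C had the highest Gata1 and Cpa3 of the mutants, and control chondroblasts B had the highest Cpa3 of all and no Gata1. The part of red cells and mast cells in the Gata1 values was not tested.

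**Figure D1:**
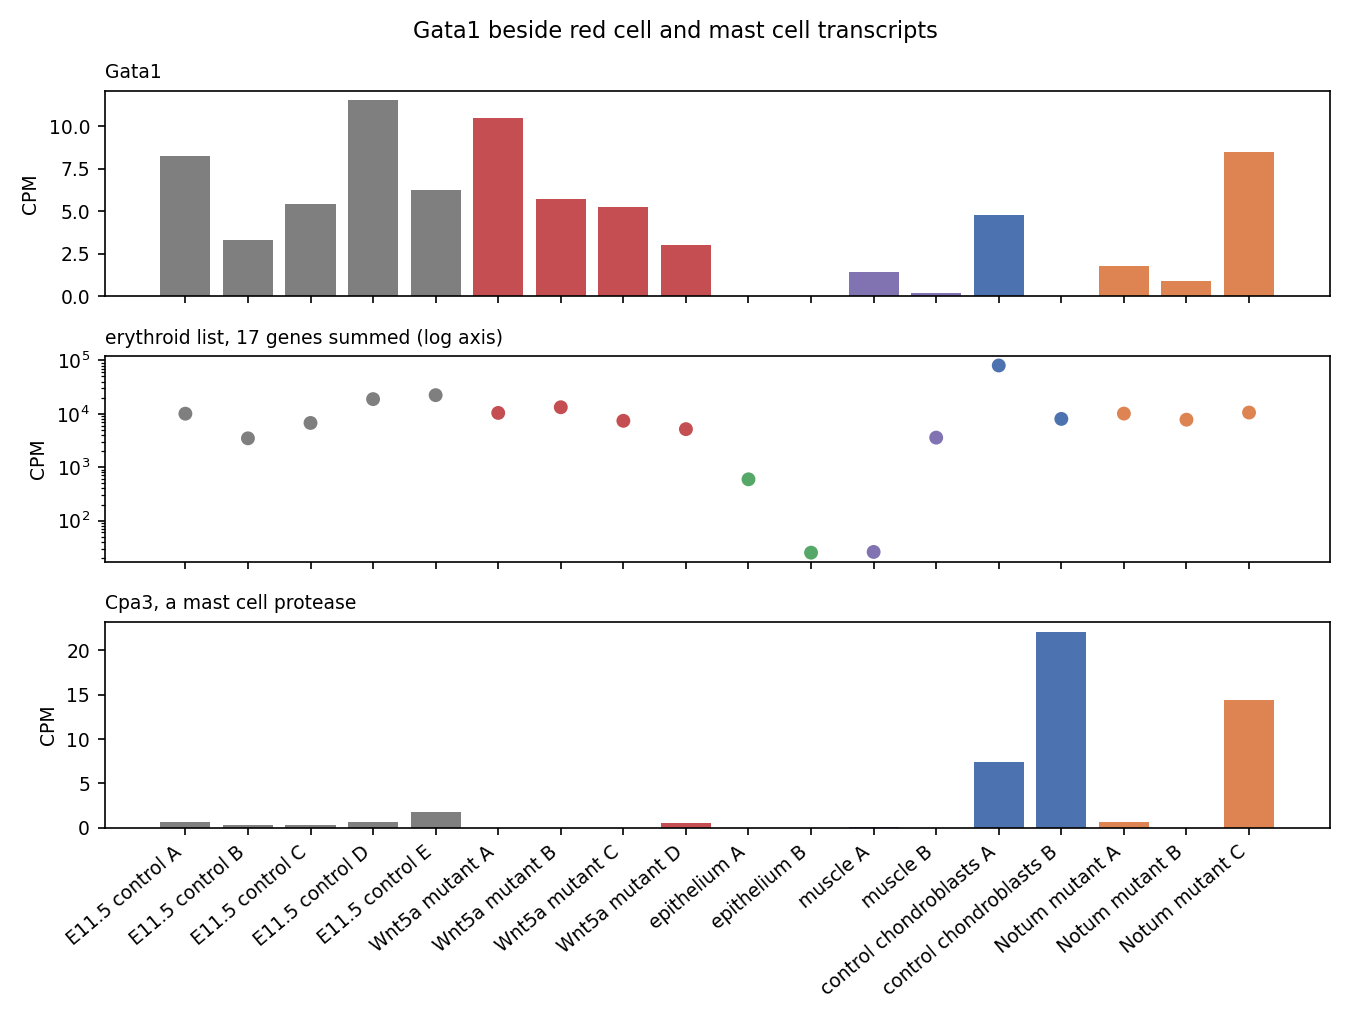
Gata1, the sum of 17 erythroid genes and the mast cell gene Cpa3 in each of 18 libraries, all in CPM. Bars give levels on a linear axis from 0, and points give the erythroid sum on a log axis. Control chondroblasts A holds the highest erythroid sum, 80191 CPM, and control chondroblasts B has 0 counts of Gata1 beside 22.1 CPM of Cpa3.

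Gata2, the factor of blood progenitors, mast cells and endothelium, had the clearest order among the sorted populations. It was at 0 and 0.144 CPM in epithelium A and B, 0.178 and 1.45 CPM in muscle A and B, and 5.01 and 12.7 CPM in control chondroblasts A and B. The 3 populations did not overlap, with epithelium lowest and chondroblasts highest, although epithelium B and muscle A held 3 counts each. With 2 libraries a population this is common. Of 13687 genes tested, both epithelium libraries were above both chondroblast libraries for 3214 and below them for 3938. Muscle was above chondroblasts in this way for 2560 and below for 2950, and epithelium above muscle for 3347 and below for 3750. Gata2 was at 19.4, 17.7 and 14.5 CPM in Notum mutants A to C. Each mutant library was above both control chondroblast libraries, and the gap between mutant C and control chondroblasts B was smaller than the gap between the controls. At E11.5 the controls had 8.84, 6.89, 11.3, 11.6 and 5.21 CPM and the Wnt5a mutants 5.78, 6.55, 9.63 and 8.19 CPM. All 4 Wnt5a mutants lay within the range of the controls. The order of mean levels was Notum mutant, control chondroblasts, E11.5 control, Wnt5a mutant, muscle and epithelium, in which control chondroblasts overlapped the E11.5 controls and these the Wnt5a mutants.

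Since epithelium held 3 counts of Gata2 and muscle 26, the ratios are given from counts. Gata2 was 98.1-fold higher in the control chondroblasts than in epithelium (95% counting interval 33.2 to 478.5) and 10.2-fold higher than in muscle (6.83 to 15.95). These intervals do not cover the spread between libraries. The fitted log2 fold change against epithelium, −6.71, was −5.85 without epithelium A and −5.89 without control chondroblasts B, and without epithelium B the remaining library held 0 counts, so no fold is given. Against muscle it was −3.42, and −5.57 without muscle B, −2.60 without muscle A and −2.58 without control chondroblasts B. Endothelial transcripts had the same order. Summed over 12 genes, they were at 25.6 and 22.9 CPM in epithelium, 117 and 98.6 CPM in muscle, and 206 and 134 CPM in control chondroblasts, with Egfl7 the most abundant of them over all libraries. In the Notum mutants this sum was 171, 127 and 127 CPM, which spans the lower control, while Gata2 was above both controls. The 11 macrophage and mast cell genes summed to 12.7 and 346 CPM in epithelium, 43.7 and 105 CPM in muscle, 320.4 and 238 CPM in control chondroblasts and 471, 364 and 588 CPM in the Notum mutants. This sum, like Gata2, was higher in each mutant than in each chondroblast control, but did not keep the order of the sorted controls. The part of endothelial, macrophage and mast cells in the Gata2 values was not tested.

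Gata3, the factor of T cells, sympathetic neurons and the parathyroid, varied widely within groups. E11.5 controls A to E had 5.12, 27.5, 8.34, 10.04 and 11.4 CPM, and Wnt5a mutants A to D had 15.1, 30.9, 9.51 and 48.1 CPM. Mutants B and D were above every control, mutants A and C were within the range of the controls, and control B was far above the other controls. The columns of control B and mutant D carry the same number. Between libraries with the same number, Gata3 was higher in the mutant in 4 of 4 cases, at 15.1 against 10.04 CPM, 30.9 against 5.12 CPM, 9.51 against 8.34 CPM and 48.1 against 27.5 CPM. This comparison was made after the values were seen, and the numbers were not borne out as pairs for all 4. Apart from Gata1, which was lower in each mutant, the other members were mixed in this comparison. Gata2 was higher only in mutant D (8.19 against 6.89 CPM). Gata4 and Gata5 were higher only in mutant C (14.9 against 13.6 and 26.04 against 17.6 CPM). Gata6 was lower only in mutant A (14.2 against 17.8 CPM). No share over all genes is given for such comparisons. In the sorted controls Gata3 was at 8.11 and 0 CPM in epithelium A and B, 5.16 and 4.61 CPM in muscle, and 6.28 and 10.2 CPM in chondroblasts. It was at 14.4, 14.6 and 25.4 CPM in the Notum mutants, above both chondroblast controls in each of the 3 libraries. The order of mean levels was Wnt5a mutant, Notum mutant, E11.5 control, control chondroblasts, muscle and epithelium, and the only neighbours that did not overlap were control chondroblasts and muscle. Muscle was below control chondroblasts in this way for 2950 of 13687 genes.

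Markers of the other tissues that express Gata3 are given beside it. The list of 8 parathyroid, thymus and thyroid genes summed to 17.3, 13.4, 18.3, 20.95 and 19.5 CPM in E11.5 controls A to E and to 46.7, 63.7, 19.4 and 39.3 CPM in Wnt5a mutants A to D. Mutants A, B and D were above every control in this sum, and its most abundant gene was Hhex, at 28.9, 43.04, 8.89 and 21.7 CPM in the mutants and 9.24 CPM or less in the controls. The defining parathyroid gene Gcm2, chosen after its values were seen, was at 0.469 CPM or less in all 9 libraries. Control B had 27.5 CPM of Gata3 with the lowest sum of the list, 13.4 CPM. Each mutant was above the control with the same column number in this sum, which was compared after the values were seen. In chondroblasts this list summed to 6.64 and 1.05 CPM in the controls and to 9.10, 17.4 and 17.1 CPM in the Notum mutants, higher in each mutant than in each control. The list of 14 neuronal and glial genes summed to 382, 110, 308, 363 and 326 CPM in the E11.5 controls and to 617, 231, 238 and 101 CPM in the Wnt5a mutants. Mutant A was above every control and mutant D, with the highest Gata3, below every control. In chondroblasts, the neuronal and glial genes summed to 240.4 and 355 CPM in the controls and 382, 452 and 365 CPM in the Notum mutants, led by Tubb3 at 88.1 and 99.8 CPM in the controls and 115, 136 and 91.05 CPM in the mutants. The sum was higher in each mutant than in each control. The part of these cells in the Gata3 values was not tested.

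Promoters are shown for Gata2 and Gata3, the members with a promoter entry that were higher in each Notum mutant library than in each control. Each runs from 250 bases before to 50 bases after a transcription start (RefSeq, GRCm38.p6), is written 5′ to 3′ on the strand of the gene, and has matches to the core letters GATA, on either strand, in capitals. Gata2 has 2 starts in the table, at chr6:88193641-88193940 and chr6:88198414-88198713 on the plus strand, and the Gata3 window is chr2:9878551-9878850 on the minus strand.
Gata2 upstream start: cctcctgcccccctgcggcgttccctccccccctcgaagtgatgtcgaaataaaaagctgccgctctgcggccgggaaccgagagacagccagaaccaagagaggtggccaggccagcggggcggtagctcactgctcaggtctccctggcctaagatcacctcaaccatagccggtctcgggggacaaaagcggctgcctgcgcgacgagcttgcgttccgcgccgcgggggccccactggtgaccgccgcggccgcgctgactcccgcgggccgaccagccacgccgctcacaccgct
Gata2 downstream start: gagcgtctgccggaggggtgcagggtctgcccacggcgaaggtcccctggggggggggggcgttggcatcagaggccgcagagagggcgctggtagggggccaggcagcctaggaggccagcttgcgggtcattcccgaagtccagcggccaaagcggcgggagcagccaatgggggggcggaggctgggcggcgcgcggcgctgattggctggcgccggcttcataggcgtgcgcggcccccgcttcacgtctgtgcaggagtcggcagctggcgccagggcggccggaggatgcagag
Gata3: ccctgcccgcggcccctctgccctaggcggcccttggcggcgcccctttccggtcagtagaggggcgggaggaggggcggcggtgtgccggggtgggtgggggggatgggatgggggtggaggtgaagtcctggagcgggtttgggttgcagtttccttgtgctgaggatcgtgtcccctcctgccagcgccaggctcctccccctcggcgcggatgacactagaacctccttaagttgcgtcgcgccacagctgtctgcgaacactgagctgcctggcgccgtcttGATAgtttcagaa
The core is in 57.9% of all 32851 promoter windows of 300 bases in the table. It was found 1 time in Gata3, and 0 times in either Gata2 window. The longer forms AGATAA and TGATAA, which hold the core and were searched on both strands, are in 18.6% of windows. The letters CTTTGAA and CTTTGAT, forms bound by the Wnt effectors TCF and LEF, also searched on both strands, are in 8.65%. Neither kind was found in the 5 windows of the 4 members that had an entry, which besides Gata2 and Gata3 were Gata1 (chrX:7967861-7968160, 1 core match) and Gata5 (chr2:180334630-180334929, 0 core matches). Guanine and cytosine made up 69.3% and 73.7% of the Gata2 windows and 67.3% of the Gata3 window. Gata4 and Gata6 had no entry.

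Gata4, a factor of heart muscle, mesothelium and foregut mesenchyme, had the largest log2 fold change of the 6 genes between Notum mutant and control chondroblasts. Control chondroblasts A and B had 1.79 and 0.149 CPM, from 35 and 2 counts. Notum mutants A to C had 19.03, 15.1 and 10.6 CPM, from 410, 307 and 214 counts. The lowest mutant was above the higher control by more than the spread within either group. Since control chondroblasts B held 2 counts, ratios are given from counts. The 3 mutant libraries together were 8.37-fold above control chondroblasts A (95% counting interval 5.98 to 12.1) and 100.2-fold above control chondroblasts B (27.7 to 828). In the other sorted controls Gata4 was at 0 and 0.766 CPM in epithelium A and B and 2.37 and 3.03 CPM in muscle A and B, so that muscle lay above control chondroblasts and the Notum mutants above muscle, each without overlap. Muscle lay above control chondroblasts in this way for 2560 of 13687 genes. Over all genes, the Notum mutants were not compared with muscle. Gata4 has 2 entries in the table, and both were higher in each mutant than in each control. They were at 0.875 and 0.0731 CPM and at 0.913 and 0.0763 CPM in control chondroblasts A and B, against 6.60, 7.78 and 2.56 CPM and 12.4, 7.29 and 8.002 CPM in the mutants.

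At E11.5, Gata4 was at 11.7, 23.5, 13.6, 29.99 and 16.2 CPM in the lettered order of the controls and at 5.57, 3.85, 14.9 and 10.2 CPM in Wnt5a mutants A to D. Mutants A, B and D were below every control, and mutant C was above controls A and C. The order of mean levels for Gata4 was E11.5 control, Notum mutant, Wnt5a mutant, muscle, control chondroblasts and epithelium. The 3 leading groups overlapped as neighbours, and so did control chondroblasts and epithelium. The Notum mutant chondroblasts, at 10.6 to 19.03 CPM, thus lay in the range of the whole tracheas of E11.5.

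Mesothelium and heart muscle also express Gata4, and their marker lists are given in full. The 7 mesothelial genes summed to 25.6 and 10.8 CPM in control chondroblasts A and B and to 59.3, 1.91 and 39.6 CPM in Notum mutants A to C. Upk3b, the most abundant of them, was at 8.28 and 4.93 CPM in the controls and at 20.6, 0.245 and 17.02 CPM in the mutants. Notum mutant B had 15.1 CPM of Gata4 with a mesothelial sum of 1.91 CPM, below both controls. The 12 heart muscle genes summed to 7.87 and 12.9 CPM in the controls and to 92.4, 25.9 and 29.1 CPM in the mutants, higher in each mutant than in each control. Myl7, the most abundant, was at 2.15 and 0 CPM in the controls and 36.7, 4.57 and 7.60 CPM in the mutants. Nkx2-5, a defining heart gene chosen after its values were seen, was at 0.418 CPM or less in all 5 libraries and at 0 in both controls and mutant C. The part of mesothelial and heart muscle cells in the Gata4 values of the chondroblasts was not tested.

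In the Wnt5a comparison the mesothelial list summed to 179.7, 71.6, 86.8, 303 and 282 CPM in the controls and 134, 149, 63.4 and 42.4 CPM in the mutants. Mutants C and D were below every control in this sum, whereas mutants A and B, the lowest in Gata4, were within the range of the controls. Each mutant was below the control with the same column number in this sum, which was compared after the values were seen. The list is not confined to mesothelium, as it holds Krt19, which was at 146 and 145 CPM in the sorted epithelium. In the whole tracheas Krt19 was between 6.53 and 19.96 CPM in the controls and at 27.3, 24.0 and 10.3 CPM in mutants A, B and D and 7.58 CPM in C. The airway epithelial list summed to 228 to 359 CPM in the controls and to 580, 310.7, 277.7 and 365.0 CPM in mutants A to D. Mutants A and D were above every control in this sum, and B and C were within the range of the controls. Of 6 mesothelial genes tested, edgeR called 0 at an adjusted p under 0.05. At an unadjusted p under 0.05, 2 were lower, Lrrn4 and Wt1, and DESeq2 called Lrrn4 alone, both genes being chosen after their values were seen. The 2 became 3 without control B, control C or mutant B, and 1 without control D, control E or mutant A, C or D. Of all 14663 genes, 2.87% were lower at this threshold, and this share moved as well, to 2.80%, 5.33%, 4.00%, 1.45% and 1.05% without controls A to E and 3.34%, 1.47%, 2.66% and 1.5004% without mutants A to D. The 12 heart muscle genes summed to 65.1, 45.9, 173, 132 and 373 CPM in the controls and 198, 96.2, 51.6 and 67.35 CPM in the mutants, which lay within the range of the controls. The part of mesothelial cells in the lower Gata4 of the Wnt5a mutants was not tested.

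**Figure D2:**
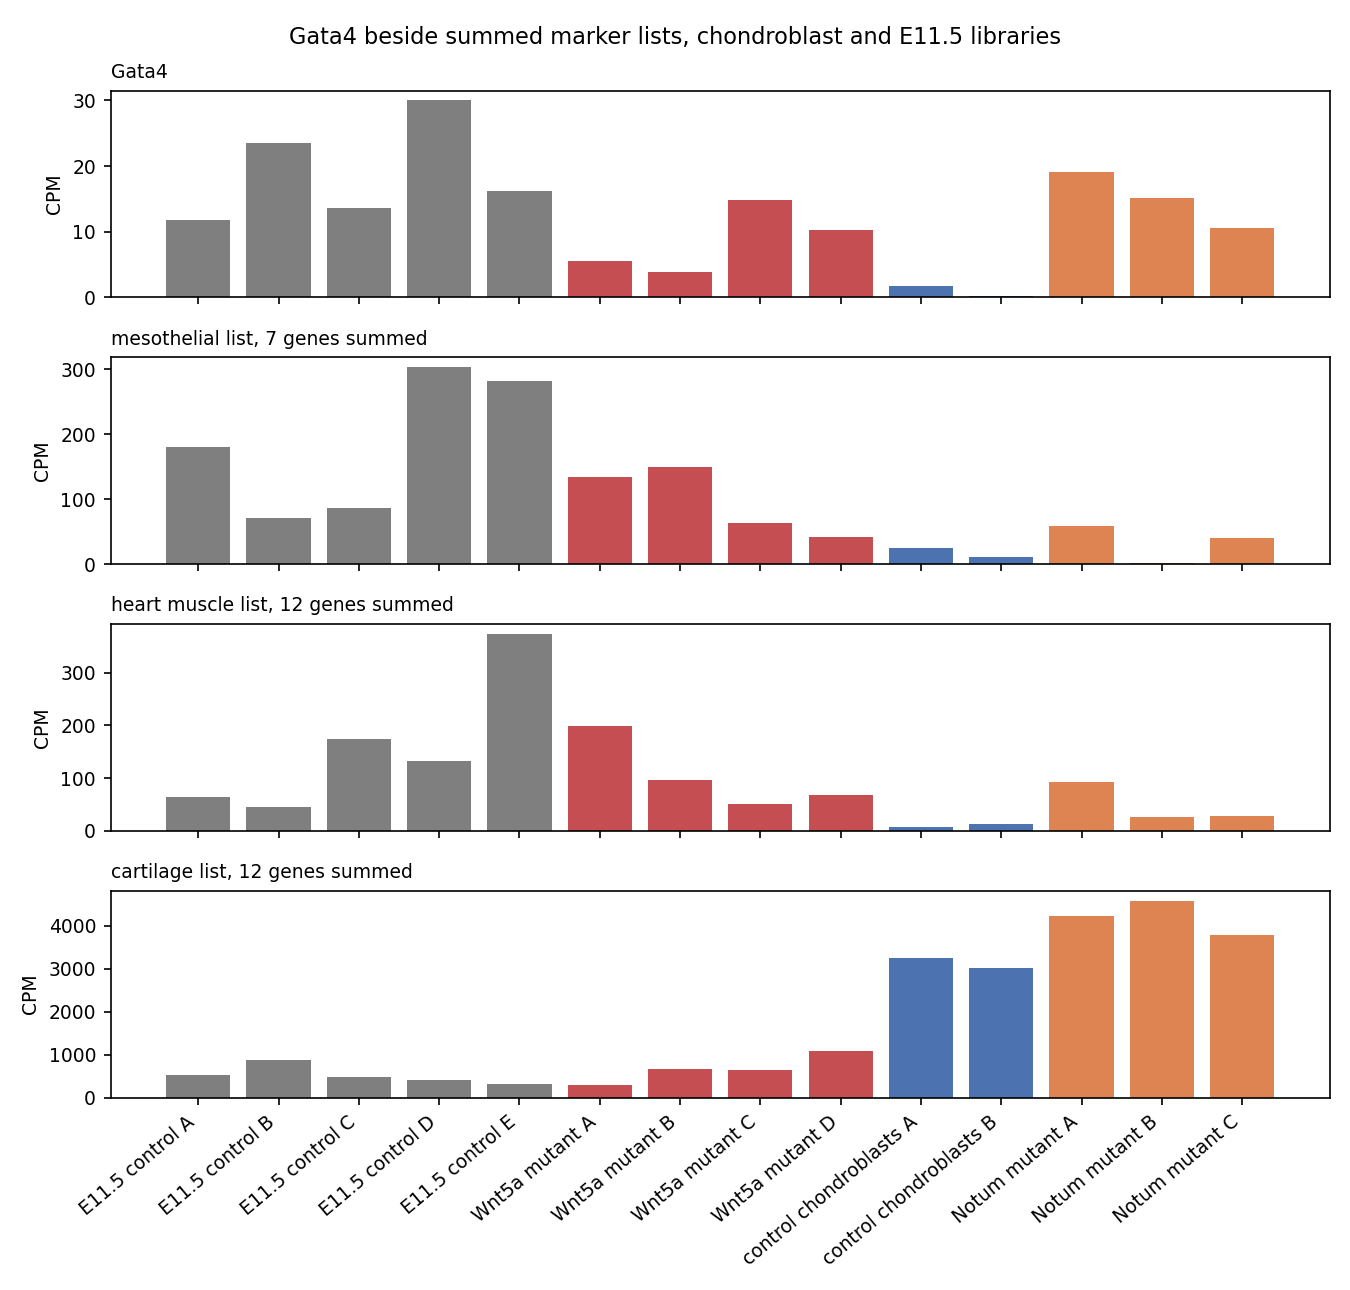
Gata4 and the summed mesothelial, heart muscle and cartilage lists, in CPM, as bars for each of the 9 E11.5 and 5 chondroblast libraries. Gata4 is at 10.6 to 19.03 CPM in the Notum mutants and at 1.79 CPM or less in the control chondroblasts. Notum mutant B has 15.1 CPM of Gata4 and 1.91 CPM of the mesothelial list.

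Gata5, known for the heart lining and for endodermal organs, was highest at E11.5. The controls had 19.95, 66.7, 17.6, 48.1 and 19.96 CPM and the Wnt5a mutants 21.99, 4.51, 26.04 and 28.4 CPM. Mutants A, C and D were within the range of the controls and mutant B was below it. At E13.5 the values split between libraries of a group, with 0.0654 and 2.97 CPM in epithelium A and B, 6.76 and 26.9 CPM in muscle A and B, and 1.12 and 11.4 CPM in control chondroblasts A and B. The Notum mutants had 14.1, 10.7 and 6.86 CPM. Muscle and control chondroblasts were higher in the library of the later date, and epithelium in that of the earlier. Epithelium lay below muscle without overlap, as it did for 3750 of 13687 genes. Notum mutants B and C were below control chondroblasts B and above A. Ordered by mean, the groups ran E11.5 control, Wnt5a mutant, muscle, Notum mutant, control chondroblasts and epithelium, and each overlapped the next.

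Gata6, the airway epithelial and heart factor, had the narrowest range of group means of the 6 genes on the ratio scale, from 10.5 to 19.2 CPM. The E11.5 controls had 13.1, 12.6, 7.70 and 17.8 CPM in A to D and 21.4 CPM in E, and the Wnt5a mutants 14.2, 16.1, 11.45 and 13.8 CPM, all within the range of the controls. Epithelium A and B had 17.1 and 3.78 CPM, muscle 12.3 and 11.7 CPM, and control chondroblasts 10.98 and 16.2 CPM. The Notum mutants had 22.3, 18.8 and 16.7 CPM. Each was above both chondroblast controls, mutant C by 16.7 against 16.2 CPM. All 6 groups overlapped their neighbours in the order Notum mutant, E11.5 control, Wnt5a mutant, control chondroblasts, muscle and epithelium.

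**Figure D3:**
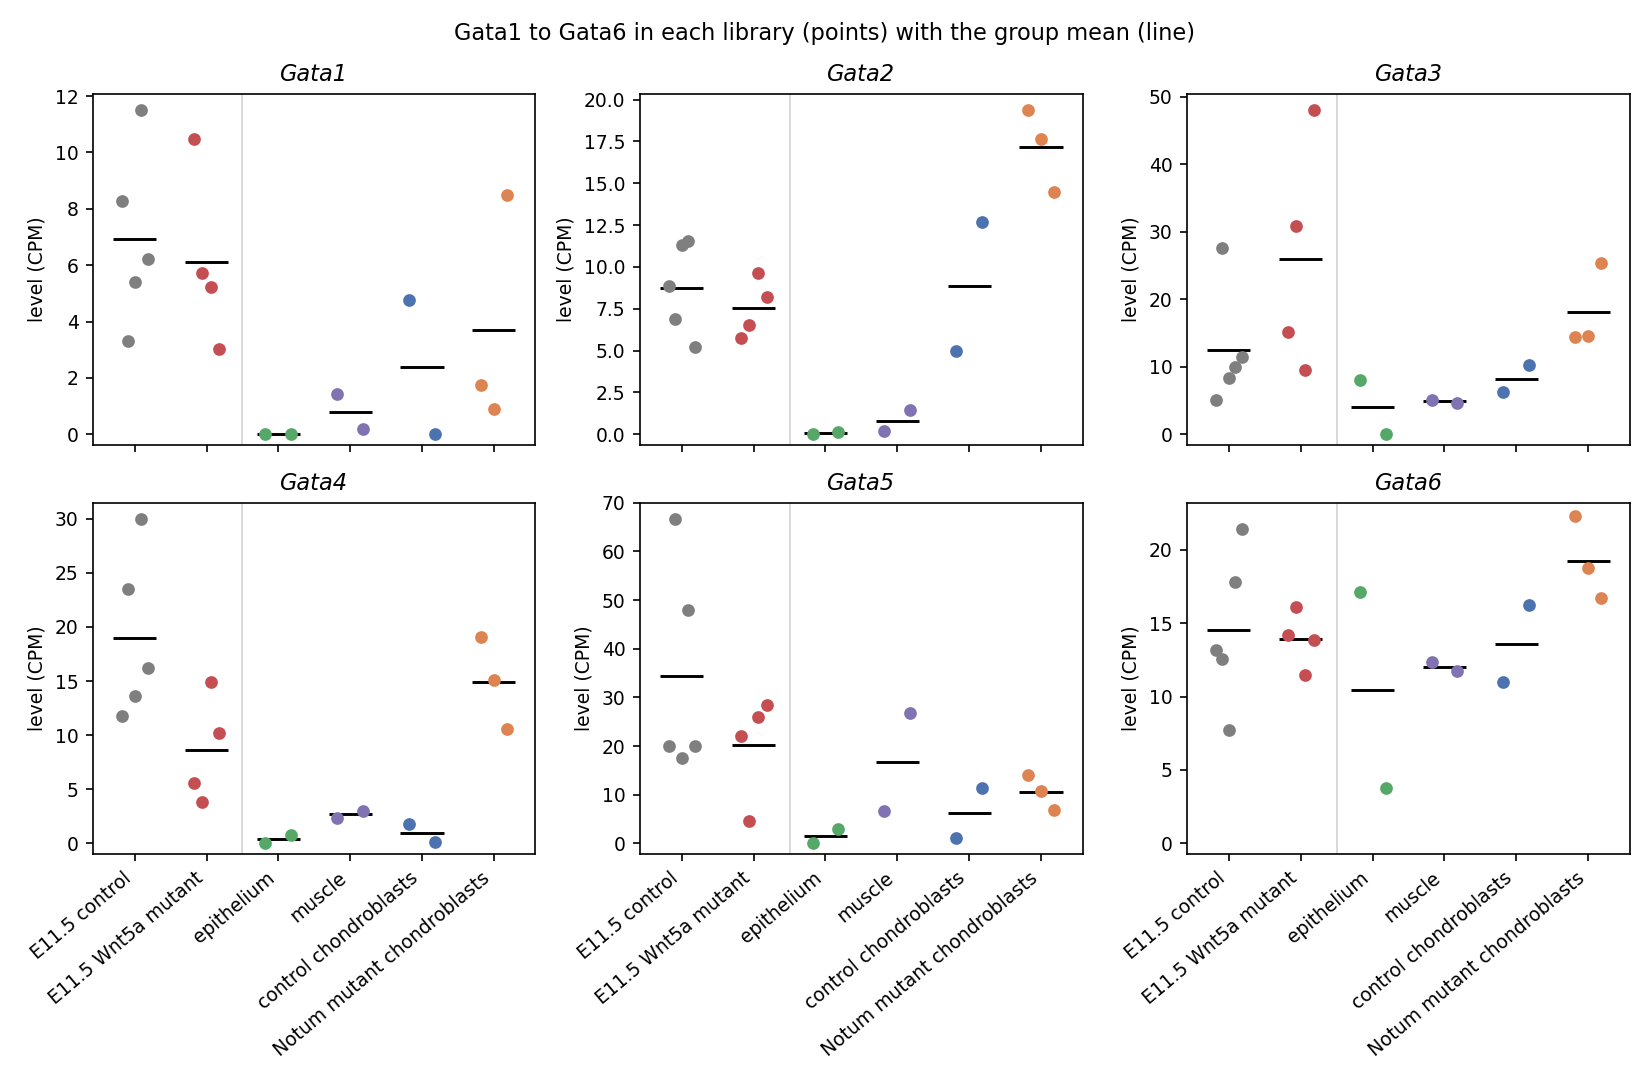
Levels of Gata1 to Gata6 in CPM for each of 18 libraries (points) in 6 groups, with the group mean as a line. Axes are linear and differ between genes. Gata2, Gata3, Gata4 and Gata6 are higher in each Notum mutant library than in each control chondroblast library, and Gata2 is at 1.45 CPM or less in epithelium and muscle.

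Levels of different genes are compared per kilobase of exon, over protein-coding transcripts. In the E11.5 controls the mean was 10.5 CPM per kb for Gata5, 5.22 for Gata4, 4.49 for Gata6, 3.88 for Gata3, 3.65 for Gata1 and 2.38 for Gata2. Gata5 had the highest level per kb in controls A to D and Gata6 in control E. In the Wnt5a mutants the highest means were 8.05 CPM per kb for Gata3 and 6.17 for Gata5, but Gata5 was highest in mutants A and C and Gata3 in B and D, so no leading gene is given. In control chondroblasts Gata6 had the highest mean, 4.21 CPM per kb, and was highest in both libraries. The means of the others were 2.57 for Gata3, 2.40 for Gata2, 1.90 for Gata5, 1.25 for Gata1 and 0.266 CPM per kb for Gata4, and no order is given among them, since Gata5 was at 0.343 and 3.47 and Gata1 at 2.50 and 0 CPM per kb in A and B. In the Notum mutants the means were 5.95 CPM per kb for Gata6, 5.64 for Gata3, 4.66 for Gata2, 4.09 for Gata4 and 3.22 for Gata5. Gata6 was highest in mutants A and B and Gata3 in C. In epithelium the highest mean was that of Gata6, at 3.23 CPM per kb, and it was highest in both libraries. In muscle the mean of Gata5, 5.13 CPM per kb, rested on muscle B, with 26.9 CPM against 6.76 CPM in muscle A, and no order is given there.

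The comparison of Notum mutant with control chondroblasts asks how these cells change without the Wnt inhibitor Notum. The 6 members were among 14120 genes tested, and their log2 fold changes are given with the standard error (SE) and 3 mutant and 2 control libraries. The log2 fold change was 3.90 (SE 0.92) for Gata4, 1.14 (0.42) for Gata3, 0.96 (0.46) for Gata2 and 0.51 (0.30) for Gata6. The fitted value of Gata4 uses both controls, of which control chondroblasts B held 2 counts. Of the count ratios above, that against B rests on these 2 counts and that against A does not. For these 4 genes the groups did not overlap, and each stayed positive when any 1 library was left out and when only the later date was used. With the later date alone, where control chondroblasts B is the only control, the log2 ratio of mean CPM, with 0.5 CPM added to each, was 4.57 for Gata4, 0.79 for Gata3, 0.42 for Gata2 and 0.24 for Gata6. Leaving out control chondroblasts A in the edgeR fit keeps the same 4 libraries and gave 6.57 for Gata4, the largest move of its value. Without control chondroblasts B, and so against the earlier date alone, it was 3.06 for Gata4, 1.54 for Gata3, 1.78 for Gata2 and 0.81 for Gata6. Gata5 (0.76, SE 0.90) and Gata1 (0.66, SE 1.67) overlapped. For Gata5 the log2 fold change was −0.11 without control chondroblasts A, −0.10 with the later date alone, and 3.23 without control chondroblasts B. For Gata1 it was −0.34 without control chondroblasts B, and without A the other control held 0 counts, so no fold is given.

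Over the whole table, every mutant library was above every control for 17.2% of the 14120 genes and below it for 16.4%, beside 4 and 0 of the 6 members. With edgeR, 0 members and 0 genes (0%) passed an adjusted p under 0.05. At an unadjusted p under 0.05 there were 2 members, Gata3 and Gata4, beside 12.5% of genes. DESeq2 called 1 member, Gata4, beside 3.73%, or 526 genes. Gata4 and Gata1 passed the filter on low counts through the mutants alone. The 2 controls pass it only where both reach 1 CPM, and control chondroblasts B held 0.149 CPM of Gata4 and 0 CPM of Gata1. The filter thus favours members high in the mutants. Nothing is read from the members' counts, since the rule names this contrast. The count of 0 genes by edgeR rested on the controls: it was 2540 without control chondroblasts A, the library with the high erythroid sum, and 106 without control chondroblasts B, where the lone control is taken to vary like the mutants.

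The Wnt5a comparison asks how the whole trachea changes at E11.5 when the mesenchyme lacks Wnt5a. All 6 members were among the 14663 genes tested, with 4 mutant and 5 control libraries. The log2 fold change was −1.17 (SE 0.41) for Gata4, −0.79 (0.53) for Gata5 and 1.02 (0.52) for Gata3, and the groups of each overlapped. Without any 1 library it ran from −1.57 to −0.92 for Gata4 and from 0.57 to 1.51 for Gata3. For Gata5 it ran from −0.96 to −0.43, the latter without control B, which had 66.7 CPM. Gata2 (−0.25, SE 0.28), Gata1 (−0.22, SE 0.42) and Gata6 (−0.11, SE 0.29) moved by less than their SE. The sign of Gata1 changed without control D (0.04) or mutant D (0.03), and that of Gata6 without control E (0.11) and, in the 8 libraries without control E, with a block by column number (0.16). Every mutant library was above every control for 0.825% of genes and below it for 0.436%, and for 0 of the 6 members in either direction. With edgeR, 2 genes (0.0136%) passed an adjusted p under 0.05, the muscle regulators Myod1 and Myog, named after their values were seen, and 0 members did. At an unadjusted p under 0.05 there was 1 member, Gata4, beside 4.58% of genes, and DESeq2 called 0 members beside 0.273%. The count of 2 was 0 without any of controls B, C and D or mutants A and D, 1 without control A or mutant B, and 3 without mutant C. Nothing is read from these counts for the members either.

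**Figure D4:**
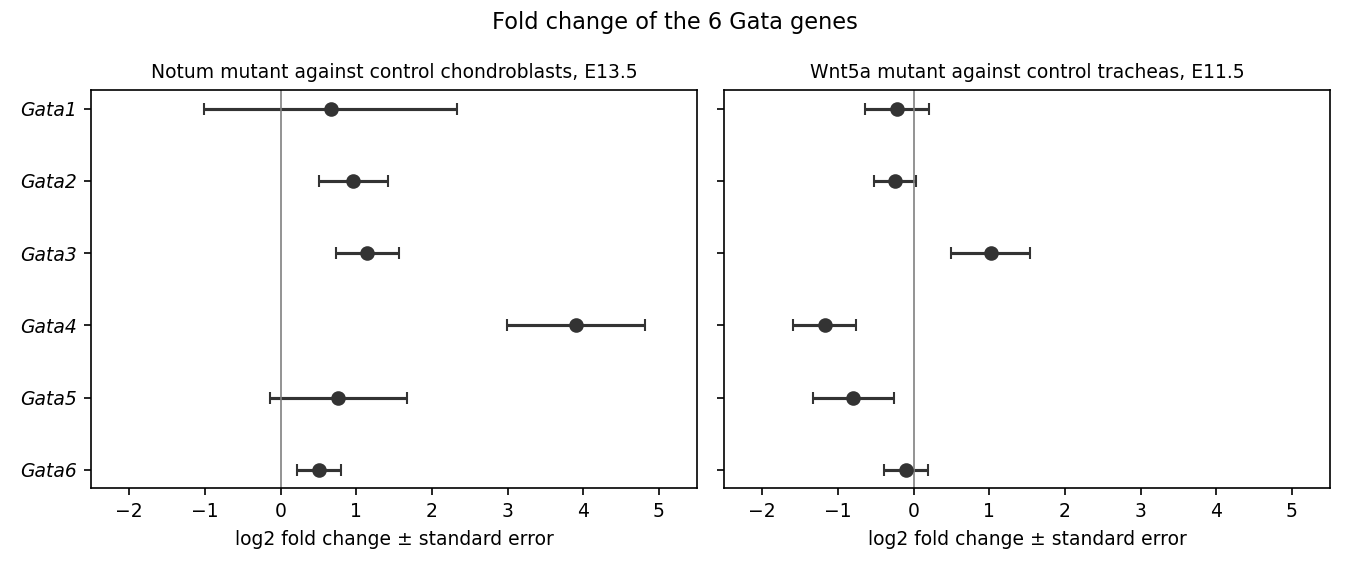
Log2 fold change of Gata1 to Gata6 (points) with its SE (bars), for Notum mutant against control chondroblasts at E13.5 and Wnt5a mutant against control tracheas at E11.5. Gata4 is at 3.90 in the former and −1.17 in the latter, and Gata1, Gata5 and Gata6 change sign in at least 1 of the panels when a single library is left out.

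The sorted controls were compared to see which population carries each gene, with 2 libraries a population and 13687 genes tested. Gata1 did not reach the filter on low counts there, so 5 of 6 members were tested. Between epithelium and chondroblasts edgeR called 0 members beside 2.74% of genes at an adjusted p under 0.05, and 1 member, Gata2, beside 16.4% at an unadjusted p under 0.05. DESeq2 called Gata2 as well, beside 11.4% of genes. Between muscle and chondroblasts, 0 members were called, beside 0.132% of genes by edgeR, 5.79% at the unadjusted p and 1.86% by DESeq2. Between epithelium and muscle, 0 members were called beside 3.58%, 18.3% and 13.3%. The spread between replicates (biological coefficient of variation) was 66.8% in these libraries, against 35.9% in the Notum and 34.0% in the Wnt5a comparison, and a missing call does not show equal levels. The 375 genes behind 2.74% became 196 without epithelium A, 1046 without epithelium B, 244 without muscle A, 30 without control chondroblasts A and 20 without B. The 18 genes between muscle and chondroblasts became 2 without control chondroblasts A, 4 without muscle A, and 5 without muscle B or control chondroblasts B. The 490 genes between epithelium and muscle became 320 without epithelium A, 1197 without B, 162 without muscle A, 174 without B, 254 without control chondroblasts A and 267 without B. Nothing is read from the counts of members here.

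Genes that act with GATA factors were followed in fixed lists. Zfpm2, which encodes the FOG2 cofactor of GATA4 to GATA6, was at 12.4 and 18.9 CPM in control chondroblasts and at 25.8, 26.2 and 23.3 CPM in the Notum mutants. It was at 0 and 0.479 CPM in epithelium and at 22.3 and 34.4 CPM in muscle. Each Notum mutant was above each chondroblast control, and epithelium was below all other libraries. Zfpm1, for the FOG1 cofactor of GATA1, was at 1.86 CPM or less in all 18 libraries, with 0 counts in epithelium A and control chondroblasts B, the same libraries that had no Gata1 besides epithelium B. Trps1, which encodes an atypical GATA repressor of cartilage, was at 136 and 53.8 CPM in the control chondroblasts and 99.1, 113 and 111 CPM in the Notum mutants, between the controls. It was at 18.4 and 33.1 CPM in epithelium and at 123 and 122 CPM in muscle.

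In the Notum comparison the median log2 fold change of all genes was 0.02, and edgeR called 0 genes of any list at an adjusted p under 0.05. Of all 14120 genes, 7.00% were higher and 5.48% lower at an unadjusted p under 0.05, and DESeq2 called 2.51% higher and 1.22% lower. Of 8 GATA-type zinc finger genes tested, 3 were higher at an unadjusted p under 0.05 (Gatad2a, Gatad2b and Mta1) and DESeq2 called 0, with a median of 0.28. Of 9 cofactors and blood partners, 2 were higher (Ldb1 and Zfpm2), DESeq2 called 0, and the median was 0.24. Without Notum mutant B or C, 8 cofactors passed the filter on low counts. The list thus holds a gene that passed through the mutants alone, and nothing is read from its median. Of 6 heart-field partners, 3 were higher (Isl1, Mef2c and Tbx5), DESeq2 called Isl1 and Mef2c, and the median was 0.91. Of 5 targets of GATA4 and GATA6, 2 were higher (Bmp4 and Mef2c) and 1 lower (Dab2), DESeq2 called all 3, and the median was 0.72. Apart from Zfpm2, Isl1 and Dab2, the genes in these sentences are named after their values were seen. Isl1, the most abundant heart-field gene, was at 57.5 and 54.7 CPM in the controls and 120.5, 119 and 99.6 CPM in the mutants. Dab2, the most abundant target, was at 418 and 444 CPM in the controls and 287, 300.5 and 344 CPM in the mutants. Isl1 was thus higher, and Dab2 lower, in each mutant than in each control. Some counts at an unadjusted p moved when a mutant library was left out, and so did the share of all genes higher. This share was 3.66%, 3.79% and 5.44% without Notum mutants A to C. In this order, the zinc finger list had 0, 1 and 0 genes higher and the cofactors 0, 1 and 1. The heart-field list had 3 in each of these fits, and the targets 2 in each. Counts of list genes are not given without a control library, since 1 control is then left. With any 1 library left out, the medians ran from 0.24 (without Notum mutant B) to 0.73 (without control chondroblasts A) for the zinc finger list. They ran from 0.02 (without mutant C) to 0.40 (without control A) for the cofactors and from 0.88 to 0.93 for the heart-field list. For the targets they ran from 0.29 (without control A) to 0.86 (without mutant A).

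The marker lists of other cells were counted in the same comparison, beside the same 7.00% of genes higher and 5.48% lower (2.51% and 1.22% by DESeq2). Of 17 erythroid genes, 7 were lower at an unadjusted p under 0.05 and DESeq2 called 1 (Hbb-bt), with a median log2 fold change of −2.08. This direction rested on control chondroblasts A. Without it the median was 1.03, and without control chondroblasts B it was −2.92. Without Notum mutants A to C, 4, 3 and 4 were lower. Without mutant B or C, 16 erythroid genes passed the filter on low counts, so the list holds a gene that passed through the mutants alone. The share of all genes lower was 2.44%, 2.45% and 4.39% without the mutants in turn. Of 11 endothelial genes, 1 was lower (Emcn), DESeq2 called 0, and the median was −0.31. This median ran from −0.75 without control chondroblasts B to 0.20 without A. Without Notum mutant B or C, 0 endothelial genes were lower. Of 11 macrophage and mast cell genes, 4 were higher (C1qa, C1qb, Csf1r and Mrc1) and DESeq2 called C1qa and Csf1r, with a median of 0.52. Of 13 neuronal and glial genes, DESeq2 called 2 higher, Dbh and Erbb3. Of 6 heart muscle genes, 3 were higher (Myl7, Ryr2 and Tnnt2), DESeq2 called 0, and the median was 2.55. Only these 6 of the 12 listed passed the filter on low counts, and Myl7 passed it through the mutants alone. The filter thus favours genes high in the mutants, and nothing is read from this count or median. Without Notum mutants A to C in turn, 2, 3 and 2 macrophage and mast cell genes and 1, 2 and 1 heart muscle genes were higher. Without mutant C, 1 macrophage and mast cell gene was lower. The median ran from 0.28 (without control chondroblasts A) to 0.77 (without Notum mutant B) for the former and from 1.63 (without Notum mutant A) to 2.91 (without C) for the latter. Genes named in this paragraph were chosen after their values were seen, except Csf1r and Myl7, the most abundant of their lists.

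The remaining lists are read against the same shares of all genes. Of 10 cartilage genes, 5 were higher in the Notum mutants at an unadjusted p under 0.05 (Col2a1, Col9a1, Col9a2, Sox5 and Sox6), DESeq2 called the last 3, and the median log2 fold change was 0.44. The list summed to 3239 and 3007 CPM in the controls and 4222, 4582 and 3771 CPM in the mutants. Of 7 smooth muscle genes, 1 was higher (Acta2), DESeq2 called 0, and the median was 0.73. Mesothelial (5 tested, median 0.94), parathyroid, thymus and thyroid (3, 2.13), airway epithelial (3, −1.13) and Y-linked genes (4, 0.47) had 0 at an unadjusted p under 0.05, and DESeq2 called 0 of them. Of the 8 listed parathyroid, thymus and thyroid genes, 3 passed the filter on low counts, and Hhex passed it through the mutants alone. The Y-linked genes did so too. Without Notum mutant A or C, 3 mesothelial and 6 smooth muscle genes passed, and without A or B, 2 airway genes. These lists thus also hold genes that passed through the mutants alone. Nothing is read from their medians, nor from those of the Y-linked and the parathyroid, thymus and thyroid lists. Leaving out Notum mutants A to C in turn gave 3, 3 and 5 cartilage genes and 0, 1 and 1 smooth muscle genes higher. Without control chondroblasts B the Y-linked median was −0.54, and without Notum mutant B 1 mesothelial gene was higher. The mesothelial median ran from 0.16 (without Notum mutant A) to 1.52 (without B), that of the parathyroid, thymus and thyroid list from 1.30 (without control chondroblasts B) to 5.77 (without A), and the airway median from −1.46 (without control A) to −0.60 (without Notum mutant B). The smooth muscle median ran from 0.36 (without mutant C) to 0.85 (without control B) and that of cartilage from 0.33 to 0.50. The Y-linked median without control chondroblasts A, 11.1, is against a control B sum of 0.0747 CPM. The genes of these sentences other than Col2a1, Acta2 and Hhex were named after their values were seen.

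In the Wnt5a comparison the median log2 fold change of all genes was −0.02, and edgeR called 0 genes of any list at an adjusted p under 0.05. Of all 14663 genes, 1.71% were higher and 2.87% lower at an unadjusted p under 0.05, and DESeq2 called 0.198% higher and 0.0750% lower. Without controls A to E in turn the share higher was 1.402%, 1.94%, 2.02%, 1.22% and 1.97%, and without mutants A to D 3.05%, 1.14%, 2.46% and 1.596%. The share lower was between 1.05% (without control E, where more genes were higher than lower) and 5.33% (without control B). The zinc finger, cofactor, heart-field and target lists had 8, 10, 8 and 7 genes tested, 0 at an unadjusted p under 0.05, 0 called by DESeq2, and medians of 0.03, 0.07, 0.06 and 0.09. Erythroid (17 tested), endothelial (12), macrophage and mast (10), heart muscle (9), smooth muscle (8) and Y-linked genes (4) also had 0 by either measure, with medians of −0.30, 0.11, −0.10, −0.50, −0.04 and 0.46, and so had 12 neuronal and glial genes. Of 6 mesothelial genes the median was −1.09. Without control C, D or E, 5 of them passed the filter on low counts. The list thus holds a gene that passed through the controls alone, and nothing is read from its median. Of 4 parathyroid, thymus and thyroid genes, 2 were higher at an unadjusted p under 0.05 (Hhex and Pax9) and 1 lower (Tg), and DESeq2 called Hhex, with a median of 1.02. Of 10 airway epithelial genes, 2 were higher (Cdh1 and Sox2), and of 9 cartilage genes 1 was higher (Col9a1), with medians of 0.29 and 0.17 and 0 called by DESeq2. The 2 airway genes became 3 without control B or mutant C and 1 without mutant A, and the 1 cartilage gene 2 without mutant A and 0 without mutant B. In the parathyroid, thymus and thyroid list, 0 genes were lower without control D, control E or mutant A, B or D, and 1 was higher without mutant A. Of the lists with 0, the heart-field list had 3 higher without control B and 2 without mutant C, and the heart muscle list 1 without control B and 2 without control E or mutant A. Without mutant A, the heart muscle list also had 1 lower, and the zinc finger and cofactor lists 1 higher each. The targets (1 higher) and erythroid genes (1 lower) had calls without control B, smooth muscle (1 higher) without control C and endothelial genes (1 lower) without mutant C. The neuronal and glial list had 3 lower without control B, 4 lower without mutant A, 1 lower without mutant C and 1 higher without mutant D. Among the lists whose medians are given here, leaving out 1 library changed the sign of the median for several. These were the zinc finger, cofactor, heart-field, target, endothelial, macrophage and mast, heart muscle and smooth muscle lists. For the others the median kept its sign. The median ran from −0.59 (without mutant B) to −0.05 (without control D) for erythroid genes. It ran from −1.53 (without mutant B) to −0.79 (without mutant D) for mesothelial genes and from 0.84 to 1.12 for the parathyroid, thymus and thyroid list. It ran from 0.06 (without mutant A) to 0.53 (without control B) for airway genes, from 0.01 (without mutant D) to 0.50 (without mutant A) for cartilage and from 0.15 (without control B) to 0.91 (without control C) for Y-linked genes. Genes other than Hhex in these sentences were named after their values were seen.

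Among the sorted controls, the list genes that edgeR called at an adjusted p under 0.05 were mostly those of the sort itself. Of all genes tested, 1.02% were called higher and 1.72% lower in epithelium than in chondroblasts, 1.17% higher and 2.41% lower in epithelium than in muscle, and 0.132% higher and 0% lower in muscle than in chondroblasts. Wnt7b, an airway Wnt gene in the GATA4 and GATA6 target list, had a mean of 366 CPM in epithelium against 0.100 CPM in chondroblasts and 2.67 CPM in muscle. It was called against both, and its log2 fold change against muscle was 7.09 (SE 0.84, edgeR adjusted p 0.0116), higher in 2 of 2 epithelium libraries. No fold is given against chondroblasts, where the counts are near 0. Among 7 heart muscle genes 2 were called, both lower in epithelium than in muscle: Myl4 (0.200 against 70.8 CPM) and Tnnt2 (0.499 against 76.7 CPM). Krt19 and Erbb3 were called higher in epithelium than in chondroblasts, at 145 against 5.55 CPM and 113 against 22.4 CPM. Of 9 airway epithelial genes 6 were called higher in epithelium than in chondroblasts, and of 8 smooth muscle genes 6 were called higher in muscle than in chondroblasts. Of 10 cartilage genes 3 were called lower in epithelium than in chondroblasts and 0 in muscle, where edgeR had 3 lower at an unadjusted p under 0.05 and DESeq2 0.

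The genes whose levels over the 18 libraries were most like each member are given by Pearson's r of log2(CPM + 1), among 13172 genes and without a test. The libraries fall into the 6 groups of the study and share a kit, and members of a group are alike for many genes. Gata1 was most like Bnc1 (0.911), Itga2b (0.901) and Hemgn (0.900). Gata2 was most like Vash1 (0.960), Mpped1 (0.924) and Adamts19 (0.918), and Gata3 like Lix1 (0.887), Akr1b8 (0.773) and Ak1 (0.773). The nearest genes to Gata4 were 9030624G23Rik (0.894), Cntn2 (0.889) and Asphd2 (0.869). Those to Gata5 were Gm266 (0.871), Bambi (0.868) and Wnt11 (0.864), and those to Gata6 were Hand2 (0.849), Basp1 (0.778) and Slc16a9 (0.762). Among the members, Gata4 and Gata5 were the most alike pair (0.743) and Gata5 and Gata6 the least (0.152).

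The 6 genes lie at 6 places on 5 chromosomes in GRCm38.p6. Gata1 is at chrX:7959260-7976663, Gata2 at chr6:88193891-88207032, Gata3 at chr2:9857078-9887953, Gata4 at chr14:63198914-63271712, Gata5 at chr2:180325088-180335503 and Gata6 at chr18:11052510-11085636. Gata3 and Gata5 share chromosome 2 and no other pair shares a chromosome.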

How the data were processed

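The authors deposited expected counts (estimates, often fractional) as a table of 47248 entries and 22 columns without normalization. Of the values used, 56.0% were fractional. The submitters' processing notes name genome build mm10, Partek and limma, and the study's methods name DESeq2 and Cufflinks (FPKM). The aligner and the annotation are not given in the sources used here. Of the columns, 18 were matched to a group by name and 4 were not and were left out, so that the E13.5 groups have 2, 2, 2 and 3 libraries where the labels list 3, 3, 3 and 4. The names of epithelium B and Notum mutant C lack a dash that their group's names carry, and were matched by the rest of the name. A number of unstated meaning is common to Notum mutants B and C. No 2 libraries of a group repeat each other, the closest pair having a chi-square per gene of 18.8.

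Entries sharing a symbol, as 9286 of 26202 symbols had, were summed and rounded to whole numbers. A gene was tested where over 50% of the libraries of some group in the fit had 1 CPM or more, with edgeR 4.0.16 in R 4.3.3 (TMM scaling, quasi-likelihood test, 2-sided, Benjamini-Hochberg adjustment over all genes tested), and DESeq2 1.42.0 was the other test. There was 1 fit for the Notum comparison, 1 for the Wnt5a comparison and 1 for the 3 sorted controls. The procedure was also tested on simulated data. P-values measure spread between samples. The SE is the size of the log2 fold change divided by the square root of F. Levels are CPM scaled by TMM over 18 libraries. Exon lengths are from GENCODE M21 (basic set). Correlations were taken over genes with at least 5 CPM in 2 or more libraries.

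The members and the 15 gene lists were chosen with earlier results of these data known. Ahsp, of the erythroid list, is not in the table. A gene of the lists is not reported here. Of a list, the genes named with values are at most 5 called by edgeR, the most abundant gene, and Trps1, Zfpm1 and Zfpm2. Any other is said to be chosen after its values were seen. The alternatives tried were DESeq2, DESeq2's size factors in edgeR, scaling by library size alone, testing without a filter, a minimum of 10 counts, 18 libraries in 1 fit, a term for the date, the later date only, the most abundant entry of a symbol, and leaving out each library. A block by column number, the same 8 libraries without a block, and leaving out each library for the gene lists of the 2 mutant comparisons, were chosen after seeing the data.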

Additional observations from a re-analysis of the deposited data

Results flagged for a closer look

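Among 12 sets of a Gata gene in a group of 4 or 5 libraries, 1 held a library far from the others of its group. Gata3 was at 27.5 CPM in E11.5 control B, the highest of 5 controls, and the next was 11.4 CPM. This library shares its column number with Wnt5a mutant D, the mutant with the highest Gata3, at 48.1 CPM. Chance picks out about 1 in 20 such sets.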

How the results depend on the processing

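Of 394 alternative values for the 27 fold changes of members, 380 had the sign of the reported value and 357 were within 1 SD of it. The other 37 moved by more. No member was called by edgeR, so no call could change direction. The numbers of genes called by edgeR moved further. In the order Notum, Wnt5a, epithelium against chondroblasts, muscle against chondroblasts and epithelium against muscle, they were 0, 2, 375, 18 and 490. DESeq2 gave 526, 40, 1554, 254 and 1827. Without a filter they were 42, 9, 1463, 305 and 1620, and with 18 libraries in 1 fit 9, 0, 2961, 532 and 3576. Library size without TMM factors gave 5 for Wnt5a. Leaving out 1 library gave 0 to 2540 for Notum, 0 to 3 for Wnt5a, 20 to 1046 and 2 to 22 for chondroblasts against epithelium and muscle, and 162 to 1197 for epithelium against muscle. The cause was not tested.

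The E11.5 columns carry numbers, chosen as a block after seeing the data. It gave 3 genes, and the same 8 libraries without it 2. The control with the number of mutants A to D correlated with each at 0.0993, 0.216, 0.245 and 0.748 in residual levels. The highest correlation with any other control was 0.404, 0.145, 0.299 and 0.0182. The same number was thus the best match for mutants B and D and not for A and C, and the numbers were not taken as pairs. At E13.5 the labels' replicate numbers are not in the column names, so a block by them could not be fitted. Their dates pair the sorted controls, and a term for the date gave 298, 24 and 398 genes for the 3 comparisons of sorted controls, each within 1.5 times of the reported number. With 2 control libraries a population, the later date held 1 control chondroblast library, and date and genotype cannot be told apart fully. Library size without TMM factors moved the median of all genes in the Notum comparison from 0.02 to 0.10. Counts of 3 or fewer lie behind Gata1 in both epithelium libraries, muscle B and control chondroblasts B, Gata2 in both epithelium libraries and muscle A, Gata3 in epithelium B, Gata4 in epithelium A and control chondroblasts B, and Gata5 in epithelium A.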

Other observations

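Y-linked transcripts (4 genes summed) were near 0 in E11.5 control B (1.63 CPM), Wnt5a mutant C (0.171 CPM), epithelium A (0.0654 CPM), muscle B (0.0631 CPM) and control chondroblasts B (0.0747 CPM). The last 3 are all the sorted controls of the later date. In the other 13 libraries the sum was between 55.1 and 193 CPM, with 117, 111 and 78.02 CPM in the Notum mutants.

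Of the 4 entries of Gata3, the largest held 60.8% of its counts. It was at 0.0292 CPM in muscle B, where another entry held 4.57 CPM, and at 29.99 CPM in Wnt5a mutant D, where that entry held 15.7 CPM. In E11.5 control B and Wnt5a mutant D, the libraries with the highest Gata3 of their groups, several lists stood apart. The heart-field list had its highest sums, 311 and 296 CPM, against 128 to 199 CPM in the other E11.5 libraries, and the cartilage list too, 870 and 1086 CPM against 293 to 672 CPM. The neuronal and glial sums, 110 and 101 CPM against 231 to 617 CPM, were the lowest, and the mesothelial sums, 71.6 and 42.4 CPM, the lowest of their groups. These 2 libraries share the column number 7, and their residual levels correlated at 0.748.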
